A study of Mus musculus with 14 samples.

Results

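The dual-specificity phosphatases described here are 6 MAP kinase phosphatases, Dusp1, Dusp2, Dusp4, Dusp5, Dusp6 and Dusp10, measured in activated mouse CD4+ T cells given interferon alpha and a JAK inhibitor. They were chosen by name: each is the gene of a probe set annotated to that symbol alone. Each of the 6 had 1 such probe set, out of 19752 gene symbols with a probe set of their own, and all 6 were among the 11761 genes bright enough to be tested. The lowest value of any of them on any array was 7.33 on the log2 intensity scale, above the 6.29 used as the filter on a gene's mean, so none entered through its brighter time point alone.

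CD4+ T cells from spleens of male C57BL/6 mice aged 6 weeks were activated for 48 h with CD3/28 beads and then received interferon alpha at 100 U/ml together with 1 of 7 JAK inhibitors at its IC80. Their RNA was hybridised to Affymetrix mouse gene arrays after 8 h (7 arrays) or 2 h (7 arrays), 1 array for each inhibitor and time. The labels name the inhibitors' targets as JAK1, JAK1/2, PAN, TYK2 and JAK2, and give JAK3 as the target of both IFN.6226 and IFN.6228. All 14 arrays therefore carry activation, interferon and an inhibitor alike, and arrays without an inhibitor are not analysed here. The 7 inhibitors serve as the replicates of a time point, so the SD over them holds the difference between compounds as well as the error of an array, and no inhibitor has a replicate at a time. Nothing in the labels says whether the arrays came from separate mice or cultures.

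MAP kinases are switched on by phosphorylation of a threonine and a tyrosine in their activation loop, and dual-specificity phosphatases remove both phosphates. Most of these genes are themselves induced by the kinases they act on, which makes them feedback inhibitors. In T cells, the antigen receptor and CD28 switch on the ERK, JNK and p38 kinases. DUSP5 and DUSP6 act on ERK, in the nucleus and the cytoplasm. DUSP4, DUSP2 and DUSP1 are inducible nuclear enzymes, with DUSP1 acting mainly on p38 and JNK. DUSP10 acts on JNK and p38.

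The DNA just before the transcription start is shown for Dusp5, Dusp6 and Dusp1, since the levels of the first pair differed between the times without overlap and those of Dusp1 did not pass the test. Each run is the 250 bases before the start in RefSeq, build GRCm38.p6, read 5′ to 3′ along the gene. Dusp5 lies on the plus strand with its window at chr19:53528895-53529144, Dusp6 on the plus strand at chr10:99262981-99263230, and Dusp1 on the minus strand at chr17:26508473-26508722. Capitals mark matches to any of 11 short motifs searched on both strands.
Dusp5: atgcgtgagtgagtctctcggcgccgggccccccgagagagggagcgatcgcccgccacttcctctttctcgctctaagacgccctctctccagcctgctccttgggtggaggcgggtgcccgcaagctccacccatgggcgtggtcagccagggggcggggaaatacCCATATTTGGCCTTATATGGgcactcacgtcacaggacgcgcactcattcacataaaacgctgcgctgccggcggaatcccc
Dusp6: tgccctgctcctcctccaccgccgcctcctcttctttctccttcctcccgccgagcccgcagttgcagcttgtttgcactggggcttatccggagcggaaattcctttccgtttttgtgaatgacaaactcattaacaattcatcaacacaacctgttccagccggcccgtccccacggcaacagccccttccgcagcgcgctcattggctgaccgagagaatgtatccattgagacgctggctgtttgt
Dusp1: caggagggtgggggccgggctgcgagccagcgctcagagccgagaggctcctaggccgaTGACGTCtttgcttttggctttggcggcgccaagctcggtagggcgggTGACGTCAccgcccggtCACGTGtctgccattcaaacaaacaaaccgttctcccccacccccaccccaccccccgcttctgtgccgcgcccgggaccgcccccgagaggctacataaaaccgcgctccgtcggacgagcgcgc

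The capitals in Dusp5 are adjoining CArG boxes, the site of serum response factor, at 82 to 73 and 72 to 63 bases before the start. A CArG box was present in 1.47% of all 32851 RefSeq windows of this length. The Dusp1 window holds the cyclic AMP response element TGACGTCA at 143 to 136 bases before the start, a sequence present in 1.55% of windows. Its shorter form TGACGTC, which lies inside that element, also occurs in Dusp1 at 191 to 185 bases and in 2.78% of windows. An E-box, CACGTG, lies at 126 to 121 bases in Dusp1 and at 109 to 104 bases in the Dusp2 window at chr2:127335909-127336158, and in 6.02% of windows. The Dusp6 window and the Dusp10 window at chr1:184034131-184034380 held none of the 11. The others searched were AP-1 (TGANTCA, 6.75% of windows), STAT (TTCNNNGAA, 7.02%), the ISRE core (2.98%), NFAT (GGAAAA, 20.4%), ETS (CCGGAAG, 6.91%), forkhead (GTAAACA, 3.17%) and TATA box (TATAAA, 12.4%). A match is only a description of the letters, and its absence says nothing about the factor. Dusp4 has no entry in the table of windows used.

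The first comparison was 8 h against 2 h of treatment. Transcripts of 4 of the 6 phosphatases fell: Dusp4 by 2.26 on the log2 scale, Dusp5 by 1.23, Dusp6 by 0.62 and Dusp10 by 0.36, in each case with all 7 inhibitors. Dusp1 and Dusp2 did not pass the test. A gene was called where limma's moderated test, adjusted by the Benjamini-Hochberg method over all 11761 genes, gave an adjusted p under 0.05. By that rule 49.6% of all genes tested were called, 28.2% lower and 21.4% higher at 8 h, so a fall at 8 h was common. With the filter at the 60th percentile, 36.6% of genes were lower at 8 h. The 6 phosphatases stood at percentiles 68.5 to 87.6 of mean level among genes. The median difference was -0.49 for the 6 phosphatases and 0.02 for all genes. Values of the times did not overlap, with 8 h lower, for 3 of the 6 phosphatases and for 15.6% of genes. A value lower at 8 h with every inhibitor was found for 4 of the 6 and for 22.4% of genes.

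Dusp4 had the steepest fall of the 6. Its log2 intensity at 8 h was 7.88 with the JAK1 inhibitor, 7.45 with JAK1/2, 7.46 with PAN, 7.33 with TYK2, 7.64 with JAK2, 7.35 with IFN.6226 and 7.43 with IFN.6228. At 2 h it was 9.70 with JAK1, 9.80 with JAK1/2, 9.77 with PAN, 9.81 with TYK2, 9.69 with JAK2, 9.82 with IFN.6226 and 9.72 with IFN.6228. The highest array at 8 h thus lay far below the lowest at 2 h, and the JAK1 and JAK2 arrays were the upper pair at 8 h and the lower pair at 2 h. The means were 7.50 ± 0.19 at 8 h and 9.76 ± 0.06 at 2 h (SD, n = 7 each). The difference was -2.26 (SE 0.08, 95% interval -2.42 to -2.09, adjusted p = 8.62e-11), a level 4.78-fold lower at 8 h. Counted by the size of the fall, Dusp4 stood at rank 6 of the 11761 genes.

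Dusp5, the nuclear phosphatase specific for ERK, also separated the times completely. At 8 h it stood at 9.32 with JAK1, 9.03 with JAK1/2, 9.05 with PAN, 9.19 with TYK2, 9.36 with JAK2, 9.08 with IFN.6226 and 9.08 with IFN.6228. At 2 h it stood at 10.04 with JAK1, 10.31 with JAK1/2, 10.35 with PAN, 10.54 with TYK2, 10.60 with JAK2, 10.44 with IFN.6226 and 10.47 with IFN.6228. The JAK1 array was the lowest at 2 h and the second highest at 8 h, and JAK2 was the highest at both times. Means were 9.16 ± 0.14 at 8 h and 10.39 ± 0.19 at 2 h (SD, n = 7 each), a difference of -1.23 (SE 0.07, 95% interval -1.39 to -1.08, adjusted p = 1.19e-08) or 2.35-fold, at rank 79.

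Dusp6, the cytoplasmic ERK phosphatase, fell less. At 8 h its log2 intensity was 7.96 with JAK1, 7.60 with JAK1/2, 7.96 with PAN, 8.02 with TYK2, 8.21 with JAK2, 8.07 with IFN.6226 and 8.10 with IFN.6228. At 2 h it was 8.43 with JAK1, 8.48 with JAK1/2, 8.60 with PAN, 8.61 with TYK2, 8.60 with JAK2, 8.66 with IFN.6226 and 8.86 with IFN.6228. The times again did not overlap, and JAK1/2 at 8 h was the lowest array of the 14. The means of 7.99 ± 0.19 at 8 h and 8.61 ± 0.14 at 2 h (SD, n = 7 each) differed by -0.62 (SE 0.07, 95% interval -0.76 to -0.47, adjusted p = 3.20e-06), or 1.53-fold. By the size of the fall Dusp6 stood at rank 545.

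Dusp10, which acts on JNK and p38, had the smallest fall of those that passed. At 8 h it was 9.52 with JAK1, 9.73 with JAK1/2, 9.70 with PAN, 9.47 with TYK2, 9.86 with JAK2, 9.45 with IFN.6226 and 9.50 with IFN.6228. At 2 h it was 10.12 with JAK1, 10.07 with JAK1/2, 9.92 with PAN, 9.86 with TYK2, 10.01 with JAK2, 9.94 with IFN.6226 and 9.82 with IFN.6228. The JAK2 array at 8 h lay above the IFN.6228 array at 2 h, so the times overlapped, although each inhibitor's own 8 h array was below its 2 h array. Means were 9.60 ± 0.16 at 8 h and 9.96 ± 0.11 at 2 h (SD, n = 7 each), a difference of -0.36 (SE 0.06, 95% interval -0.48 to -0.23, adjusted p = 0.000167), or 1.28-fold. By the size of the fall Dusp10 stood at rank 1519.

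Dusp1, an early inducible nuclear phosphatase, was 9.20 with JAK1 at 8 h, 8.91 with JAK1/2, 8.98 with PAN, 8.80 with TYK2, 9.09 with JAK2, 8.75 with IFN.6226 and 8.92 with IFN.6228. At 2 h it was 9.34 with JAK1, 9.08 with JAK1/2, 8.97 with PAN, 9.22 with TYK2, 8.94 with JAK2, 9.13 with IFN.6226 and 8.99 with IFN.6228. The times overlapped widely, and JAK1 was the highest array at each of them. The 8 h value was the lower with 5 of 7 inhibitors, and the difference of -0.15 (SE 0.07, 95% interval -0.30 to 0.00) did not pass (adjusted p = 0.0970). Without the 2 JAK2 arrays it was -0.20 and did pass, at an adjusted p of 0.0209.

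Dusp2, a nuclear phosphatase known from activated lymphocytes, was 9.31 with JAK1 at 8 h, 8.93 with JAK1/2, 8.82 with PAN, 8.97 with TYK2, 9.02 with JAK2, 9.08 with IFN.6226 and 9.08 with IFN.6228. At 2 h it was 8.84 with JAK1, 9.14 with JAK1/2, 9.05 with PAN, 9.25 with TYK2, 8.98 with JAK2, 9.14 with IFN.6226 and 9.09 with IFN.6228. The JAK1 inhibitor gave the highest array at 8 h and the lowest at 2 h. The difference over the 7 inhibitors was -0.04 (SE 0.08, 95% interval -0.21 to 0.13, adjusted p = 0.690), and 5 of 7 inhibitors had the lower value at 8 h.

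**Figure D1:**
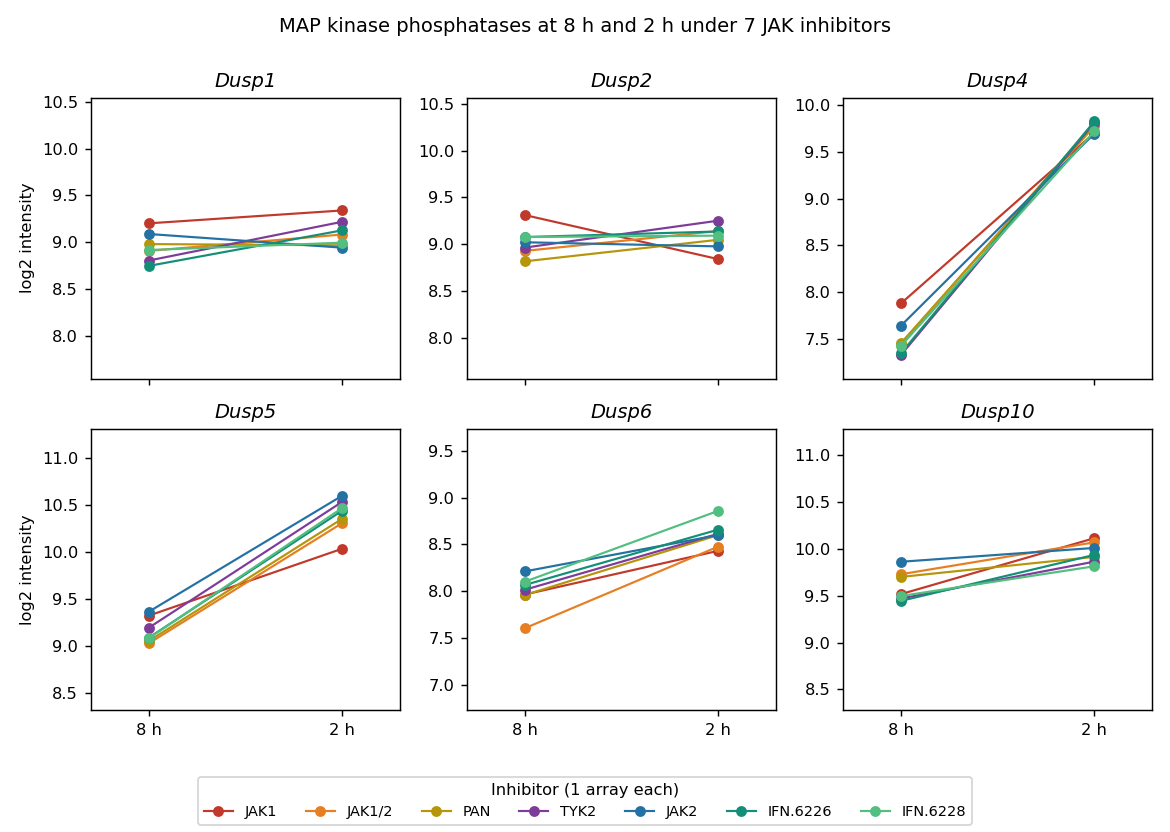
Log2 intensity (vertical axis) of the 6 phosphatases in the 14 arrays, with 8 h left of 2 h in each panel and 1 coloured point per inhibitor, joined between the times. Each panel spans the same number of log2 units, so the slopes can be set side by side: Dusp4 and Dusp5 separate the times by 2.26 and 1.23, while Dusp1 and Dusp2 overlap.

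The plot of levels shows that the fall of Dusp4 and Dusp5 exceeded the spread over inhibitors at either time, whereas the values of Dusp1 and Dusp2 overlapped between the times. Because the genes have different probes, the height of a panel does not rank the genes by abundance, and only differences within a gene are read. In RNA from a whole culture, fewer cells of a type and less RNA per cell cannot be told apart.

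The order of the falls was nearly the same within each inhibitor. The 8 h minus 2 h difference was more negative for Dusp4 than for Dusp5 in 7 of 7 inhibitors, by a mean of -1.02, and more negative for Dusp5 than for Dusp6 in 7 of 7, by -0.62. Dusp6 fell more than Dusp10 with 6 of 7 inhibitors, by -0.26 on average. The Dusp4 difference ran between -2.48 with TYK2 and -1.82 with JAK1. That of Dusp5 was -0.71 with JAK1 and between -1.39 and -1.24 with the other 6. Both of the deepest declines were thus shallowest with the JAK1 inhibitor, while that of Dusp10 was the deepest with it, at -0.60 against -0.15 with JAK2, the shallowest. Dusp6 changed by between -0.87 with JAK1/2 and -0.39 with JAK2.

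**Figure D2:**
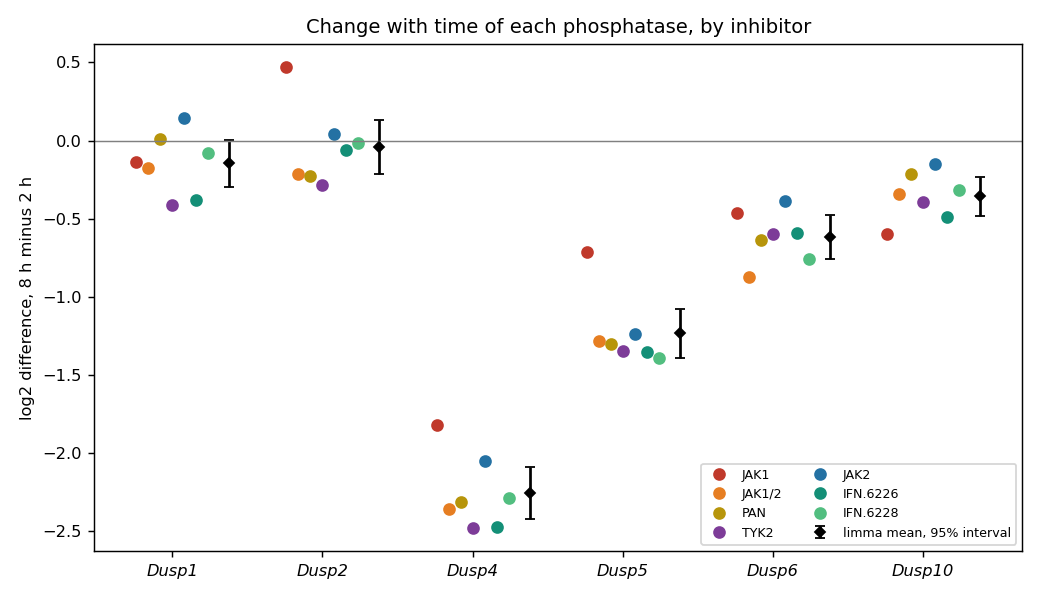
Difference in log2 intensity, 8 h minus 2 h (vertical axis), of each phosphatase for the 7 inhibitors (coloured points), with the limma mean and its 95% interval (black diamonds and bars). The intervals of Dusp4, Dusp5, Dusp6 and Dusp10 lie below 0 and those of Dusp1 and Dusp2 reach it.

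In the plot of differences the points of JAK1 stand apart at Dusp5, at -0.71, and at Dusp2, at 0.47. The JAK1 array at 8 h also stood apart over all genes: its mean correlation with the other 8 h arrays was 0.990, the lowest of the 14, and its upper quartile of 398 was the lowest of a range up to 497. Leaving it out kept all 4 calls.

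Of the defining markers of the labelled CD4+ T cells, Cd3e averaged 12.37 and Cd4 11.82 over the 14 arrays. The arrays of the times differed in markers of cells. The mean of 5 T cell markers was 11.95 to 12.01 at 8 h and 11.61 to 11.73 at 2 h, that of 2 CD8 markers 7.94 to 8.16 at 8 h and 7.59 to 7.82 at 2 h, and that of the 4 measured of 5 B cell markers 8.54 to 8.79 at 8 h and 8.11 to 8.31 at 2 h. None of these 3 lists overlapped between the times, and their part in the time differences was not tested. The level of 5 macrophage markers was 6.35 to 6.52 at 8 h and 6.25 to 6.49 at 2 h, and overlapped. Skeletal muscle markers reached 7.47 to 7.49 in 3 arrays, those of JAK1 at 8 h and of JAK1/2 at 8 h and at 2 h, and stood at 6.69 to 6.91 in the other 11, and their part in the values of these inhibitors was not tested.

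The rest of the pathway was read at the same 8 h against 2 h comparison, from lists of the phosphatases' relatives, substrates and targets. Genes that ERK signalling induces early, such as the Egr and Fos transcription factors, had 12 of 13 tested members lower at 8 h and 0 higher. Their median was -0.81. Fos and Fosl1 averaged 5.98 and 6.26 at 8 h, under the filter of 6.293, and 6.79 and 6.67 at 2 h. Both were tested only through their 2 h level, so their falls are partly set by the filter. Egr2 fell by 2.04 (SE 0.07), Fosl2 by 1.39, Phlda1 by 1.30 and Egr3 by 1.10, and Mcl1, a survival factor of the BCL2 family, was at 0.03 and did not pass. The Sprouty and Spred proteins, feedback inhibitors that act upstream of ERK, had 3 of 4 tested members lower: Spry1 at -1.15, Spred1 at -1.11 and Spred2 at -0.40.

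Among the MAP kinases themselves, 6 of 8 tested were lower at 8 h and 0 higher, with a median of -0.33. Mapk8, a JNK kinase, fell by 0.60, Mapk14, the alpha form of p38, by 0.44, Mapk6 by 0.41 and Mapk11, another p38 form, by 0.36. Of the kinases above them, 4 of 19 were higher (21.1%) and 5 lower (26.3%), shares near the 21.4% and 28.2% over all genes, and the median was -0.01. Map2k3, an activator of p38, fell by 0.94 and Map3k8, which drives ERK, by 0.66, whereas Map3k12 at 0.69 and Map2k6, a further p38 activator, at 0.44 were higher. Averaged over its probe sets, Map3k12 was not called higher. Under quantile normalization and under cyclic loess 7 of these 19 kinases were higher. Over all genes 3120 and 3012 were then higher, in place of 2517.

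Other members of the phosphatase family did not move as a block. Of the other 4 classical MAP kinase phosphatases, Dusp16, which acts on JNK and p38, fell by 1.03 (SE 0.09), Dusp7, an ERK phosphatase, was higher by 0.39 (SE 0.05), and Dusp8 at 0.03 and Dusp9 at -0.03 did not pass. Of 9 atypical dual-specificity phosphatases tested, 2 were higher (Dusp23 at 0.32 and Dusp19 at 0.27), 2 lower (Dusp14 at -0.89 and Dusp12 at -0.35) and 5 did not pass. These shares, 22.2% higher and 22.2% lower, were near the 21.4% and 28.2% over all genes. Dusp19 was not called under median centring, and with probe sets averaged 1 of the 9 was called lower. Downstream of the kinases 4 of 10 were higher and 3 lower. The p38-activated kinases Mapkapk3, Mapkapk2 and Mapkapk5 were at -1.01, -0.59 and -0.35, and Zfp36 and Zfp36l2, which bind AU-rich messages and promote their decay, at 0.34 and 0.25.

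**Figure D3:**
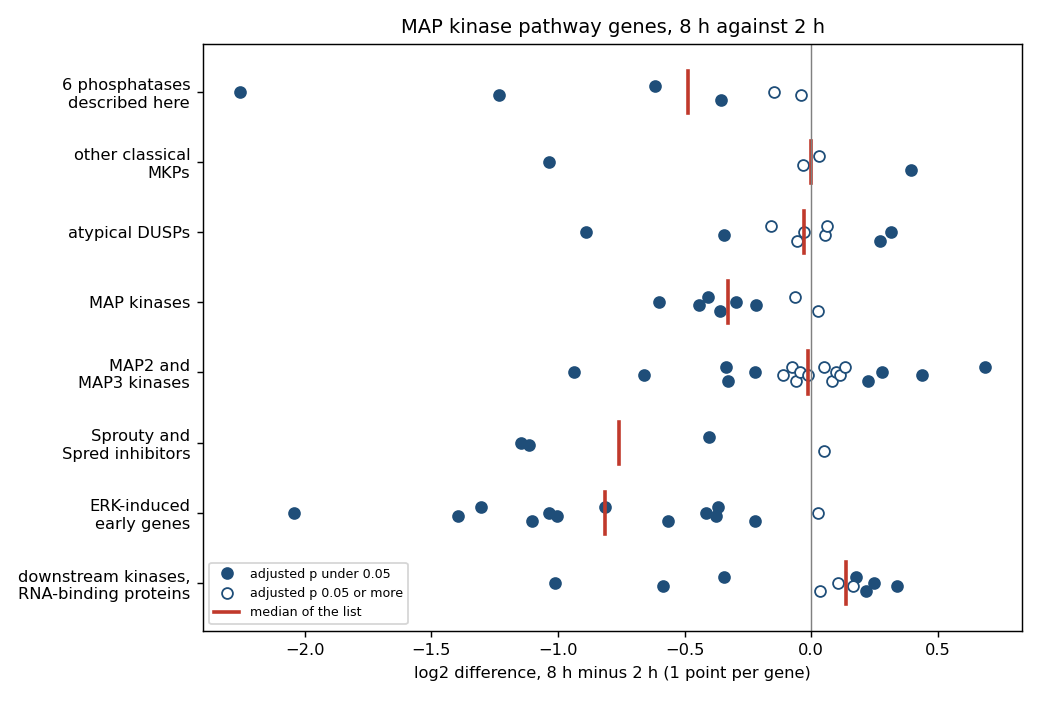
Difference in log2 intensity, 8 h minus 2 h (one point per gene), for the 6 phosphatases and 7 lists of related genes. Filled points have an adjusted p under 0.05 in limma and the red line is the list's median, which is -0.49 for the 6 phosphatases, -0.81 for the ERK-induced early genes and -0.76 for the Sprouty and Spred proteins.

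The plot of the lists shows the ERK-induced genes almost wholly below 0, and the upstream kinases and the other phosphatases on both sides of it. Over all genes 28.2% were lower and 21.4% higher, the levels against which these counts are read.

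The second set of comparisons asked whether the phosphatases differed between inhibitors. In 15 comparisons of the 6 genes, 90 in all, limma called none, and 7 had an unadjusted p under 0.05. The smallest adjusted p was 0.0882 and the largest difference 0.30. The half-widths of the 95% intervals, which are not adjusted for the number of genes, ran between 0.13 and 0.34. Differences smaller than that were not resolved with 1 array per inhibitor and time. Larger ones could also go uncalled: the interval of the largest, Dusp6 with JAK1/2, left out 0. The same rule called 7.77% of all genes for JAK1 against the other inhibitors (6.81% lower and 0.961% higher), 0.0085% for JAK1/2, 0.0765% for JAK2, and 0% for PAN, TYK2, IFN.6226 and IFN.6228, each against the rest, and 0% for IFN.6226 against IFN.6228. Genes with an unadjusted p under 0.05 numbered 38 for PAN, 569 for TYK2, 375 for IFN.6226, 811 for IFN.6228 and 42 for IFN.6226 against IFN.6228. The counts of 38 and 42 are far below a share of 0.05 of the 11761 genes. The residual of this fit also holds inhibitor differences in the change with time, so 0% called does not show that inhibitors act alike.

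The first class comparison set the 4 inhibitors whose label takes in JAK1 or TYK2, the kinases of the interferon alpha receptor (JAK1, JAK1/2, PAN and TYK2), against the 3 labelled JAK2 or JAK3 alone. None of the 6 phosphatases was called, against 0.697% of all genes at 2 h, 0% at 8 h, 0% for the mean of both times and 0.102% for the difference between the times. At an unadjusted p under 0.05 there were 1834 genes at 8 h and 1234 for the mean of both times. Dusp6 was the lower in the class with JAK1 or TYK2: over both times it averaged 8.21 ± 0.12 (SD, n = 4) with those inhibitors and 8.42 ± 0.06 (SD, n = 3) with the JAK2 and JAK3 inhibitors. The difference of -0.21 (SE 0.07, 95% interval -0.37 to -0.05) had an adjusted p of 0.425. At 8 h alone Dusp6 was 7.60 to 8.02 with the JAK1 or TYK2 inhibitors and 8.07 to 8.21 with the JAK2 and JAK3 inhibitors, without overlap (13.7% of genes did so in that direction), and the difference was -0.24 (adjusted p = 0.319). The 2 h values were 8.43 to 8.61 with the JAK1 or TYK2 inhibitors and 8.60 to 8.86 with the JAK2 and JAK3 inhibitors, and the PAN and TYK2 arrays lay above the JAK2 array. The fall of Dusp6 between the times did not differ detectably by class, at -0.07 (95% interval -0.35 to 0.22).

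The second class comparison set the 5 inhibitors labelled JAK1, JAK1/2, PAN or JAK3, which take in the kinases of the interleukin-2 receptor, against JAK2 and TYK2. No phosphatase was called, against 0.051% of genes at 2 h (6 genes, and 0 without any 1 of 6 of the inhibitors), 0% at 8 h and 0% for the mean of both times, where 81 and 243 genes had an unadjusted p under 0.05. Dusp5 at 2 h averaged 10.32 ± 0.17 (SD, n = 5) with the JAK1 or JAK3 inhibitors and 10.57 ± 0.05 (SD, n = 2) with JAK2 and TYK2, without overlap, as for 3.55% of genes in that direction. The difference was -0.25 (SE 0.10, adjusted p = 0.518). Over both times Dusp5 stood at 9.72 ± 0.05 (SD, n = 5) with the JAK1 or JAK3 inhibitors and 9.92 ± 0.08 (SD, n = 2) with JAK2 and TYK2, again without overlap, against 3.79% of genes, and the difference of -0.21 (SE 0.06, 95% interval -0.34 to -0.07) had an adjusted p of 0.999.

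Single inhibitors were then set against the other 6 in the fit that holds time constant. That fit averages an inhibitor's arrays of both times, so opposite deviations cancel. Dusp2 with JAK1 was the lowest at 2 h and the highest at 8 h, and its contrast was 0.03. Dusp1 averaged 9.27 with JAK1 and 8.98 with the others, a difference of 0.29 (SE 0.10, 95% interval 0.08 to 0.50, adjusted p = 0.0882). Under quantile normalization that difference was 0.40 and passed, with an adjusted p of 0.0121. Dusp6 with JAK1/2 was 8.04 against 8.34 with the others, at -0.30 (SE 0.09, 95% interval -0.50 to -0.10, adjusted p = 0.935). Dusp5 with JAK2 was 9.98 against 9.74, at 0.24 (SE 0.10, 95% interval 0.02 to 0.47, adjusted p = 1.00). Dusp6 with IFN.6228 was 8.48 against 8.27, at 0.21 (SE 0.09, adjusted p = 0.722). None of these 4 passed after adjustment over all genes. Without the JAK1 array at 8 h, Dusp5 passed in 2 of these contrasts, at -0.42 for JAK1 (adjusted p = 0.0146, 1 array) and at 0.29 for JAK2 (adjusted p = 0.0367), and without the JAK2 arrays Dusp1 passed for JAK1 at 0.30 (adjusted p = 0.0422).

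**Figure D4:**
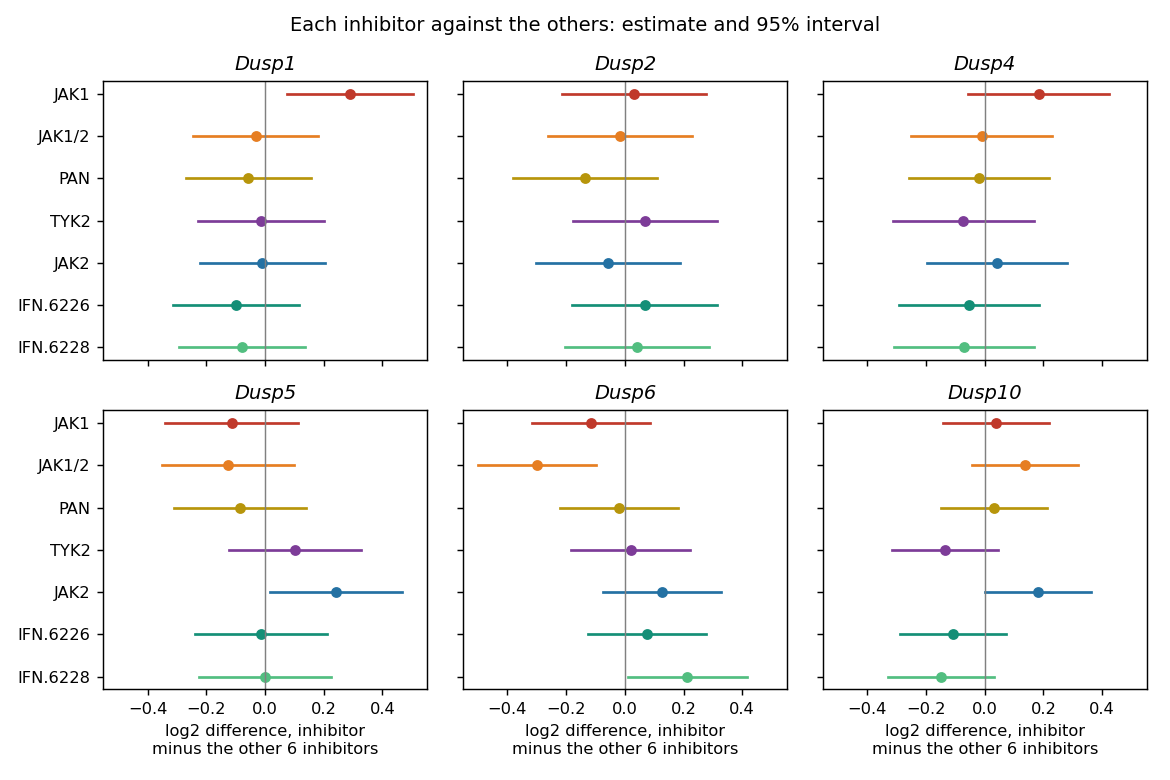
Difference in log2 intensity of each inhibitor against the other 6 (points, with 95% intervals) for the 6 phosphatases, with time held constant in limma. The largest is -0.30 for Dusp6 with JAK1/2, and none of the 42 passes after adjustment over all genes.

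In the plot of inhibitor contrasts all intervals but 4 take in 0. IFN.6226 and IFN.6228, which share the label JAK3, differed by at most 0.12 (Dusp6, -0.12, 95% interval -0.38 to 0.15), which is within the interval and does not show that they act alike.

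In the related lists, JAK1 against the other inhibitors called 5 of 67 genes tested, or 7.46%, against 7.77% over all genes. The directions differed: 3 listed genes were higher (4.48%) and 2 lower (2.99%), against 0.961% and 6.81% over all genes. The 5 were Dusp7 at 0.28, Dusp19 at -0.49, Egr3 at 0.37, Junb at 0.32 and Mapkapk3 at -0.26. None of these genes was called without the JAK1 array at 8 h. Under median centring, Dusp7, Egr3, Junb and Mapkapk3 were not called. Under quantile normalization Mapkapk3 was not called, and other listed genes were, such as Mapk11, Map3k11, Spred2 and Zfp36l2, all higher. The other inhibitor comparisons called none of the listed genes.

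Among inhibitors at one time, few neighbours in the order of levels were further apart than the SD of a difference between arrays. For Dusp5 at 2 h, JAK1/2 exceeded JAK1, the lowest, by 0.27. For Dusp6, PAN at 8 h exceeded JAK1/2, the lowest, by 0.35, and IFN.6228 at 2 h, the highest, exceeded IFN.6226 by 0.20. For Dusp10 at 8 h, PAN exceeded JAK1 by 0.18. All other neighbours were closer than this spread. The SD comes from the fit to these same arrays, and it also holds differences between inhibitors in their change with time. A gap above it therefore does not resolve an order, and the order of the inhibitors was not resolved. The residual SD after inhibitor and time were fitted was 0.14 for Dusp1, 0.18 for Dusp2, 0.17 for Dusp4, 0.17 for Dusp5, 0.12 for Dusp6 and 0.11 for Dusp10.

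Pearson's r over the 14 arrays, which share the split by time, described which genes were most like each phosphatase. For Dusp4 the closest were Lrig1, Kdm6b and Nr4a3, all at 0.99, and 725 genes exceeded 0.9. For Dusp5 they were Lrp8, Grhpr and Rrp12 (all 0.99), for Dusp6 Xpot, Snrpa1 and Supt6 (all 0.98), and for Dusp10 Cyb5r3 (0.97). Dusp1 and Dusp2, without a time difference that passed, had their closest at 0.90 (Fbrsl1) and 0.88 (Map2k2). Dusp4 and Dusp5 correlated at 0.98 over the 14 arrays and at 0.45 once each time's mean was removed. For Dusp4 and Dusp6 the values were 0.89 and 0.07, and for Dusp1 and Dusp4 0.53 and 0.69. With the time means removed, the gene closest to Dusp6 was again Xpot, at 0.96, and those closest to Dusp4 and Dusp10 were Nubp1 and Trp53i11, both at 0.96.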

How the data were processed

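The values are 14 columns of probe set intensity in a table the authors deposited, made with Affymetrix Power Tools and RMA per the submitters' processing notes, and versions are not given in the sources used here. They are on a linear scale, from 4.78 to 22879, and log2 was taken here. Of 24922 probe sets, 21425 had 1 gene symbol in the platform annotation, 1399 several and 2098 none. Each gene was read from its brightest probe set of 1 symbol, and genes were tested where its mean log2 reached the 40th percentile, 6.293 (11761 genes).

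limma 3.58.1 in R 4.3.3 fitted time and inhibitor as additive terms over all arrays (6 residual degrees of freedom), with a variance trend, and the classes of inhibitors at each time, on their mean and on their difference (5 residual degrees of freedom). P-values were adjusted by the Benjamini-Hochberg method over all genes tested. Samples were grouped by their labels. The p-values measure the spread between these arrays, and their number limits the precision. The scripts were tested on simulated data. The genes named were the 6 phosphatases, up to 4 called genes per direction and list, and the 3 genes most like each phosphatase, not all of which are printed. The members and lists were chosen with earlier results of these data known. Alternatives were quantile, cyclic loess and median normalization, an offset of 50, no filter or a filter at the 60th percentile, no inhibitor term, no variance trend, robust moderation, averaging over probe sets, both JAK3 inhibitors averaged, and leaving out arrays or inhibitors.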

Additional observations from a re-analysis of the deposited data

Results flagged for a closer look

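Values were set apart where the highest or lowest of 4 to 7 inhibitors lay far from the next by Dixon's test, which chance does in about 1 in 20 groups. This happened 14 times in 72 groups, many of which share arrays. Of these, 11 belong to the JAK1 inhibitor. The rule was not run over all genes, so these counts do not show an excess particular to the 6 phosphatases. Dusp1 averaged 9.27 over both times with JAK1, against 8.94 to 9.01 with the other 6, and the same value stood apart within the inhibitors naming JAK1 or TYK2 and within those naming JAK1 or JAK3. The Dusp2 difference, 8 h minus 2 h, was 0.47 with JAK1, against -0.29 to -0.21 with the other inhibitors naming JAK1 or TYK2. Among inhibitors naming JAK1 or JAK3, Dusp4 at 8 h was 7.88 with JAK1, against 7.35 to 7.46, its difference between the times -1.82, against -2.47 to -2.29, and its mean 8.79, against 8.57 to 8.62. Dusp5 at 8 h was 9.32 with JAK1, against 9.03 to 9.08 in the same class. Its difference between the times was -0.71 with JAK1, apart from all 6 others and within both classes. Dusp6 at 8 h was 7.60 with JAK1/2, against 7.96 to 8.21 with the other 6, and stood apart within both classes too. The part of the JAK1 array at 8 h, which was the least like its peers, was not tested beyond the values without it given with the processing.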

How the results depend on the processing

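Each of 96 values of the 6 phosphatases was recomputed under its alternatives, 1596 in all. In 1590 it kept its side of the threshold, in 6 it came to pass, and no call was lost or changed direction. A further 43 values that did not pass changed sign in at least 1 alternative. The 4 falls at 8 h were called under every alternative, with ranges of -2.33 to -1.98 for Dusp4, -1.32 to -1.17 for Dusp5, -0.65 to -0.53 for Dusp6 and -0.39 to -0.28 for Dusp10. Dusp1 at 8 h against 2 h passed without the JAK2 inhibitor (-0.20, SE 0.06, adjusted p = 0.0209). For JAK1 against the other inhibitors, 1 phosphatase in place of 0 was called in these settings: Dusp1 under quantile normalization (0.40, adjusted p = 0.0121) and cyclic loess (0.39, adjusted p = 0.0137), and Dusp5 without the JAK1 array at 8 h (-0.42, adjusted p = 0.0146, where JAK1 is 1 array assumed to vary like the others, and Dusp1 was then 0.28 with an adjusted p of 0.392). Leaving out 1 inhibitor at a time gave 0 to 1 calls there, with Dusp1 passing without JAK2 (0.30, adjusted p = 0.0422). For JAK2 against the others, 1 was called without the JAK1 array at 8 h (Dusp5 0.29, adjusted p = 0.0367). The cause of these was not tested. Over all genes, the calls for JAK1 numbered 914, with 232 to 1528 under the alternatives, those for JAK2 9, with 1 to 81, and those for JAK1/2 1, with 0 to 16. The counts of 0 for TYK2, IFN.6226 and IFN.6228 reached at most 7, 6 and 25, and that for PAN remained 0. For JAK1 or TYK2 against the rest there were 82 at 2 h, with 28 to 106, 12 for the difference between times, with 2 to 41, and 0 for the mean of both times, with 98 without JAK1. For JAK1 or JAK3 against JAK2 and TYK2 at 2 h there were 6, with 0 to 10, and 0 without any 1 of JAK1/2, PAN, TYK2, JAK2, IFN.6226 or IFN.6228. The 8 h and 2 h arrays were paired by the inhibitor term, and without it the same 4 phosphatases were called. Every title carries the replicate number 1, which pairs no further arrays. Each inhibitor has 1 array per time. Differences under about the interval half-widths given above, and some larger ones, are beyond these data. Which arrays were normalized together is not given in the sources used here.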
